A study of Mus musculus with 20 samples.

Results

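The cells described here were the monocyte-derived macrophages (MDMs) of mice fed vehicle chow, the cells that the authors' clustering placed in cluster 1. Of the 21016 cells in the single-cell part of the study, 6791 were in this cluster, and 6521 of them came from the 3 vehicle libraries. These were 185 of 1795 cells in sham (10.3%), 3023 of 7439 cells at 7 days post-injury (dpi; 40.6%) and 3313 of 9846 cells at 28 dpi (33.6%). Mice were female C57BL/6J, aged 8 to 10 weeks at purchase, and ate vehicle chow from 2 weeks before surgery until the end point. The operation was a T9 contusion spinal cord injury (SCI) or a T9 laminectomy alone (sham). For sham, the labels give end points of 7 and 28 days and no single day. Each library was 1 pool of cells from 3 to 4 mice, prepared from a 1 cm piece of unperfused cord that kept its meninges, so blood cells and meningeal macrophages could be present. No condition was repeated, so nothing below carries a p-value. Intervals are 95% intervals from the numbers of unique molecular identifiers (UMIs, each marking 1 captured transcript) or cells, cover counting error alone, and say nothing of how mice or pools differ. The comparison of main interest was 28 against 7 dpi, which asks how the cells of this cluster differ between the subacute and the chronic lesion. Sham stands beside it as the uninjured state.

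Monocytes leave the blood, enter the injured cord and differentiate into macrophages that clear myelin, dead cells and blood. After differentiation they come to resemble microglia, the macrophages that live in the cord from development, in shape and in many markers. Genes such as Gpnmb, a glycoprotein of lipid-loaded macrophages, and Spp1, the secreted phosphoprotein osteopontin, are commonly used to mark these cells, whereas P2ry12, Tmem119, Siglech and Sall1 are commonly used to mark microglia.

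The MDMs held 1418201 UMIs in sham, 19876321 UMIs at 7 dpi and 13864964 UMIs at 28 dpi. The median was 5769 UMIs per cell in sham, 5777 UMIs at 7 dpi and 3875 UMIs at 28 dpi, with 2027, 1704 and 1299 genes detected. In sham the 10 deepest cells carried 16.9% of all MDM UMIs, against 1.39% at 7 dpi and 1.04% at 28 dpi. Levels are given as counts per 1000000 (CPM), the UMIs of a gene scaled to 1000000 UMIs over all MDMs of that library. Differences are given as log2 ratios of CPM, with the interval in parentheses. Between 7 and 28 dpi, 6 MDM barcodes were shared, and sham shared none with either.

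All 5 genes that mark the cells (Gpnmb, Spp1, Fabp5, Ms4a7 and Lgals3) had their highest level in cluster 1 among all clusters, which is a description of the clustering and not a test. Gpnmb stood at 2622 CPM in sham, 7783 CPM at 7 dpi and 2591 CPM at 28 dpi. Its summed levels in sham and at 28 dpi were close, but with each cell weighted alike they were 969 and 2256 CPM. Spp1 stood at 4929 CPM in sham, 20649 CPM at 7 dpi and 15027 CPM at 28 dpi. Fabp5, a fatty-acid-binding protein, stood at 1806 CPM in sham, 6282 CPM at 7 dpi and 2417 CPM at 28 dpi. All 3 genes were highest at 7 dpi, and so were Ms4a7, a membrane-spanning protein of macrophages, at 185 CPM in sham, 709 CPM at 7 dpi and 312 CPM at 28 dpi and Lgals3, the lectin galectin-3, at 714 CPM in sham, 2354 CPM at 7 dpi and 1429 CPM at 28 dpi. The defining genes of circulating monocytes were close to absent. Ly6c2, which marks inflammatory monocytes, stood at 2.82 CPM in sham, 6.44 CPM at 7 dpi and 3.53 CPM at 28 dpi, and Ccr2, the receptor that draws monocytes into tissue, stood at 2.12 CPM in sham, 5.13 CPM at 7 dpi and 2.16 CPM at 28 dpi. The summed level of 5 monocyte markers was 10.6 CPM in sham, 56.2 CPM at 7 dpi and 10.9 CPM at 28 dpi.

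Microglia markers were present in the cluster at every time, and most in sham. The summed level of 6 microglia markers was 8738 CPM in sham, 2793 CPM at 7 dpi and 4265 CPM at 28 dpi, beside 19224, 6819 and 7581 CPM in the microglia cluster of the same libraries. P2ry12, the purinergic receptor of resting microglia, stood at 412 CPM in sham, 41.8 CPM at 7 dpi and 66.4 CPM at 28 dpi in MDMs, and Siglech, a sialic-acid-binding lectin, stood at 319 CPM in sham, 21.5 CPM at 7 dpi and 76.8 CPM at 28 dpi. In sham, 158 of the 185 MDMs held a UMI of P2ry12, Siglech, Tmem119 or Sall1, which left 27 cells without one. At 7 dpi 1359 of 3023 MDMs held such a UMI, and at 28 dpi 1629 of 3313. These counts were not thinned, and a deeper cell has more chances to hold such a UMI. Shares of P2ry12 and Siglech after thinning are given below beside those of T and B cells. In the 27 sham cells Gpnmb stood at 9309.9 CPM, and in the cells of the same kind at 7 dpi it stood at 10392 CPM. By these markers the cells labelled MDMs in sham were a mixture, so many of the leading results against sham, but not all, are given below with and without the marker-positive cells.

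**Figure D1:**
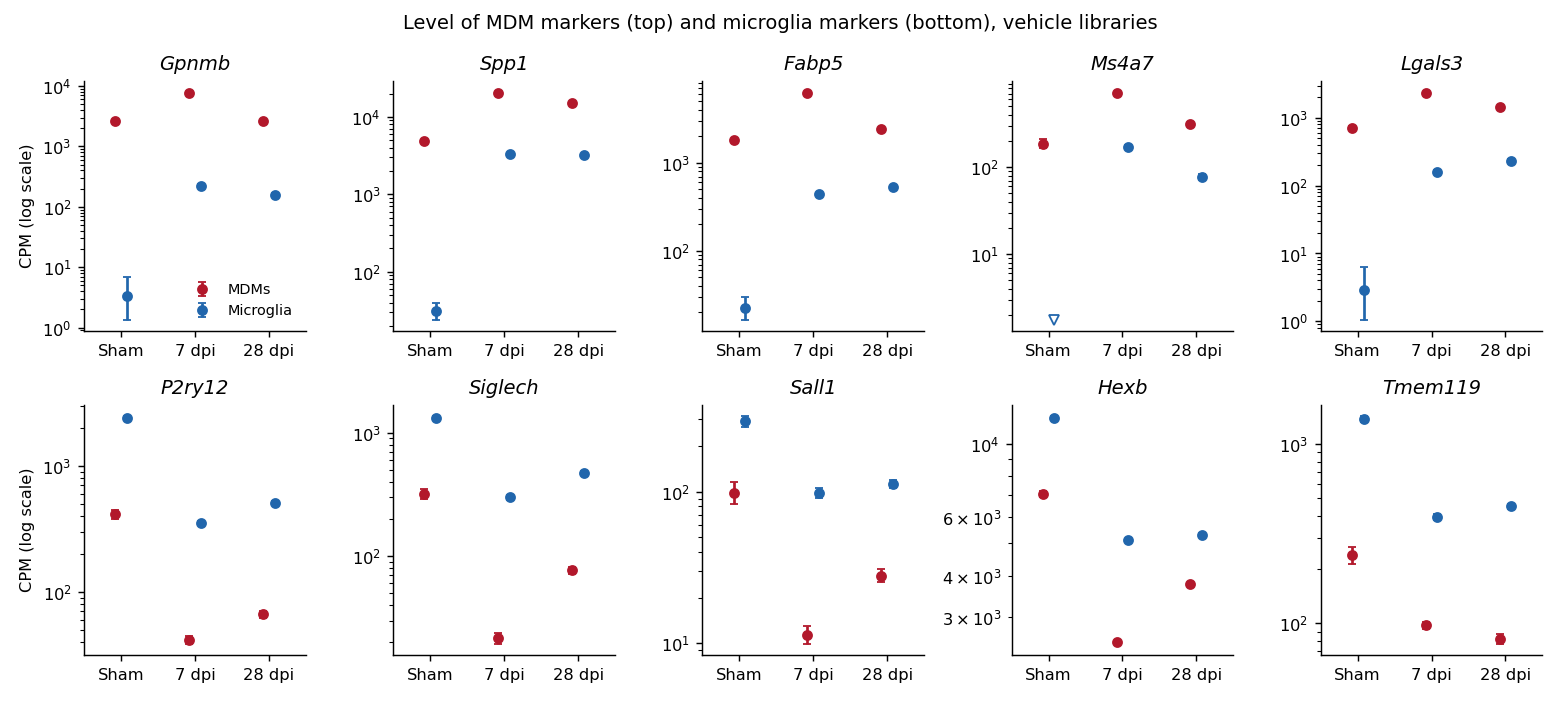
Levels of the 5 genes that mark MDMs (top row) and of 5 microglia markers (bottom row) in CPM on log axes, for MDMs (red) and microglia (blue) of the sham, 7 dpi and 28 dpi vehicle libraries, 1 point per library. Bars are 95% Poisson intervals of the counts, and the open triangle marks the upper bound for Ms4a7 in sham microglia, which had 0 UMIs. Every MDM marker was highest at 7 dpi in MDMs, and every microglia marker was highest in sham in both clusters.

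How MDMs differed between 7 and 28 dpi was examined over the 9140 genes that had 100 or more UMIs summed over both libraries. At 28 dpi, 301 genes (3.29%) were at least 2-fold higher and 329 genes (3.60%) were at least 2-fold lower than at 7 dpi, around a median log2 ratio of 0.01. The genes that were far lower included some commonly listed for inflammatory monocytes, and genes of coagulation factors and scavenger receptors. The genes that were far higher included a matrix protease, the integrin subunit CD11c, a cysteine protease inhibitor and a chemokine. The 15 highest and 15 lowest ratios among the 2161 genes with a mean level of at least 50 CPM are described next by what they encode.

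The lowest ratio belonged to F13a1, which encodes the A subunit of coagulation factor XIII. It stood at 12.7 CPM in sham, 175 CPM at 7 dpi and 3.39 CPM at 28 dpi, a log2 ratio of -5.69 (-6.14 to -5.28) for 28 over 7 dpi, with 47 UMIs at 28 dpi. Cd93, a transmembrane receptor of myeloid and endothelial cells, stood at 45.1 CPM in sham, 166 CPM at 7 dpi and 5.99 CPM at 28 dpi (-4.79, -5.12 to -4.48). Cd24a, a sialoglycoprotein anchored in the membrane, stood at 63.5 CPM in sham, 117 CPM at 7 dpi and 4.26 CPM at 28 dpi (-4.78, -5.18 to -4.41). For Cd93 and Cd24a, and for the scaffold protein gene Ahnak at 65.6 CPM in sham, 169.8 CPM at 7 dpi and 5.84 CPM at 28 dpi (-4.86, -5.20 to -4.54), the level at 28 dpi was below that of sham as well. Calcium-binding S100 proteins, abundant in monocytes, followed. S100a6 stood at 18.3 CPM in sham, 150.3 CPM at 7 dpi and 10.7 CPM at 28 dpi (-3.82, -4.06 to -3.58), and S100a11 stood at 38.8 CPM in sham, 129 CPM at 7 dpi and 20.8 CPM at 28 dpi (-2.63, -2.81 to -2.45).

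The remaining 9 genes encode scavenger receptors, secreted proteins, enzymes and others. Cd36, a scavenger receptor that takes up oxidised lipid and dead cells, stood at 26.1 CPM in sham, 127 CPM at 7 dpi and 13.6 CPM at 28 dpi (-3.22, -3.44 to -3.01). Stab1, a scavenger receptor of tissue macrophages, stood at 54.3 CPM in sham, 299 CPM at 7 dpi and 59.0 CPM at 28 dpi (-2.34, -2.45 to -2.24). Both were highest at 7 dpi and close to or below the sham level at 28 dpi. Fabp4, a fatty-acid-binding protein, stood at 59.9 CPM in sham, 220.2 CPM at 7 dpi and 35.1 CPM at 28 dpi (-2.65, -2.79 to -2.52). Cd5l, a secreted protein of macrophages that restrains lipid synthesis, stood at 4.23 CPM in sham, 158 CPM at 7 dpi and 15.9 CPM at 28 dpi (-3.31, -3.51 to -3.11), with 6 UMIs in sham. Pla2g7, which hydrolyses platelet-activating factor, stood at 44.4 CPM in sham, 235 CPM at 7 dpi and 42.6 CPM at 28 dpi (-2.46, -2.59 to -2.34). The other genes among the lowest 15 were the chemokine gene Pf4, the tartrate-resistant phosphatase gene Acp5, the matrix protein gene Ecm1 and Tnfaip2, with log2 ratios of -3.06, -3.75, -2.92 and -2.34.

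Below the level of 50 CPM, several genes were still further apart, and these were chosen after their values were seen. F7, which encodes coagulation factor VII, had 1270 UMIs at 7 dpi and 3 UMIs at 28 dpi. Cfp, the complement activator properdin, had 1135 UMIs at 7 dpi and 11 UMIs at 28 dpi. Arg1, the arginase of alternatively activated macrophages, had 617 UMIs and 3 UMIs. F10, coagulation factor X, had 290 UMIs and 4 UMIs. At the other end, Postn, a matrix protein, had 71 UMIs at 7 dpi and 1026 UMIs at 28 dpi, and Flt1, a receptor of vascular endothelial growth factor, had 194 UMIs and 1207 UMIs. Flt1 also marks endothelium, and the other 4 endothelial markers examined stood far lower. The summed level of all 5 was 39.5 CPM in sham, 19.2 CPM at 7 dpi and 93.4 CPM at 28 dpi, of which Flt1 made up 33.8, 9.76 and 87.1 CPM.

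The highest ratio belonged to Mmp12, the macrophage elastase that degrades elastin and other matrix. It stood at 40.2 CPM in sham, 32.4 CPM at 7 dpi and 325 CPM at 28 dpi, a log2 ratio of 3.33 (3.21 to 3.45) for 28 over 7 dpi and 28 dpi stood apart from both other libraries. Cst7, cystatin F, an inhibitor of cysteine proteases in endosomes, stood at 542 CPM in sham, 255 CPM at 7 dpi and 1047 CPM at 28 dpi (2.04, 1.99 to 2.08). Itgax, the integrin subunit CD11c, stood at 106 CPM in sham, 60.0 CPM at 7 dpi and 228 CPM at 28 dpi (1.93, 1.83 to 2.02). Both were lowest at 7 dpi and highest at 28 dpi. Ccl6, a chemokine of the CC family, stood at 532 CPM in sham, 160.1 CPM at 7 dpi and 555 CPM at 28 dpi (1.79, 1.73 to 1.85), and its level at 28 dpi was close to that of sham.

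Of the remaining genes of this end, most were lowest at 7 dpi. Lag3, an inhibitory receptor that binds MHC class II, stood at 204 CPM in sham, 22.6 CPM at 7 dpi and 107 CPM at 28 dpi (2.25, 2.09 to 2.40). Cd34, a sialomucin of progenitors and endothelium, stood at 277 CPM in sham, 47.2 CPM at 7 dpi and 195 CPM at 28 dpi (2.04, 1.94 to 2.15). Both were higher in sham than at 28 dpi. Pianp, a ligand of an inhibitory receptor of myeloid cells, stood at 27.5 CPM in sham, 22.6 CPM at 7 dpi and 105 CPM at 28 dpi (2.21, 2.06 to 2.37), and the scavenger receptor gene Colec12 stood at 32.4 CPM in sham, 20.9 CPM at 7 dpi and 79.6 CPM at 28 dpi (1.93, 1.76 to 2.09). Unlike Lag3 and Cd34, these were highest at 28 dpi. Hpgd, which inactivates prostaglandins, stood at 162 CPM in sham, 27.7 CPM at 7 dpi and 93.2 CPM at 28 dpi (1.75, 1.61 to 1.90). The sulfotransferase gene Chst2, the tetraspanin gene Tspan7, the pyrophosphate transporter gene Ank, Xlr, the survival gene Bcl2a1a and the cytochrome c oxidase gene Cox6a2 had log2 ratios of 1.97, 1.90, 1.83, 1.74, 1.71 and 1.68. Bcl2a1a and Xlr belong to families of near-identical copies, so their counts are uncertain.

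**Figure D2:**
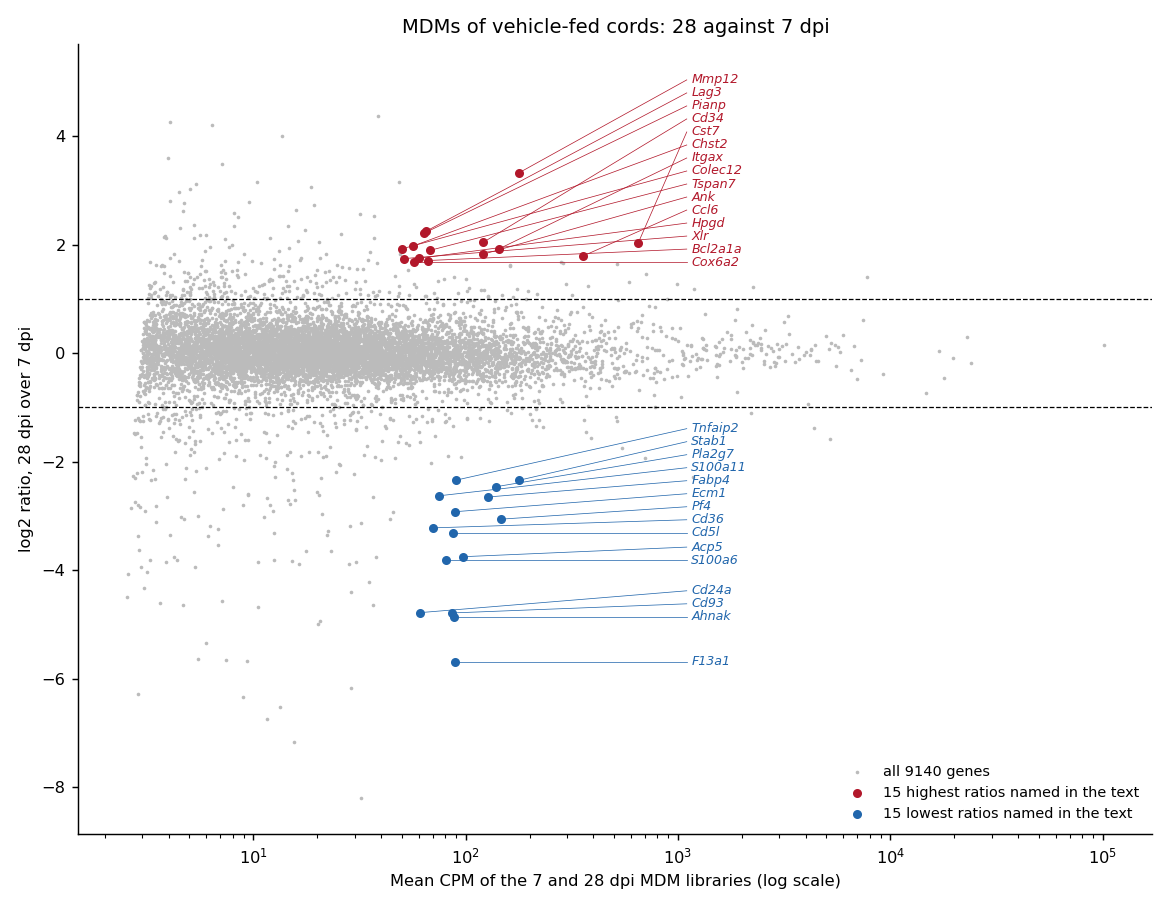
Log2 ratio of 28 over 7 dpi in MDMs (vertical axis) against the mean CPM of the 2 libraries (horizontal, log scale) for the 9140 genes with 100 or more UMIs summed, 1 point per gene. Dashed lines mark 2-fold, and the 15 highest and 15 lowest ratios at a mean of at least 50 CPM are named, from Mmp12 at 3.33 down to F13a1 at -5.69.

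Gene lists gave the same comparison by function. Each list is described by how many of its members passed the 100-UMI minimum, how many of those were at least 2-fold apart, and its median log2 ratio, beside 3.29% higher, 3.60% lower and a median of 0.01 over all genes. Of 14 genes of inflammatory monocytes, 12 passed, and 9 were lower at 28 dpi and 0 higher (median -3.02). Chil3, a chitinase-like lectin, stood at 2.12 CPM in sham, 39.8 CPM at 7 dpi and 1.30 CPM at 28 dpi (-4.94, -5.70 to -4.27), and S100a4, a motility-associated S100 protein, stood at 7.05 CPM in sham, 55.0 CPM at 7 dpi and 2.60 CPM at 28 dpi (-4.40, -4.93 to -3.93). Lyz2, the lysozyme of macrophages, stood at 1032 CPM in sham, 3003 CPM at 7 dpi and 1393 CPM at 28 dpi (-1.11, -1.13 to -1.08). In the microglia cluster of the same libraries, 3 of these genes were lower and 1 higher (median -0.40). The MDM genes under 2-fold apart were Ly6c2 (-0.87), Plac8 (-0.30) and Ms4a4c (0.44), while 2 did not pass.

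Of 14 genes of border and perivascular macrophages, the macrophages of the meninges and vessel walls, 10 passed, and 8 were lower at 28 dpi and 0 higher (median -2.26). Folr2, a folate receptor, stood at 21.2 CPM in sham, 78.7 CPM at 7 dpi and 9.45 CPM at 28 dpi (-3.06, -3.33 to -2.80), and Cd38, an ectoenzyme that consumes NAD, stood at 7.76 CPM in sham, 66.8 CPM at 7 dpi and 3.61 CPM at 28 dpi (-4.21, -4.65 to -3.80). The defining members Cd163, Lyve1, Cbr2 and Cd209f did not pass, and Mrc1, the mannose receptor, stood at 9.87 CPM in sham, 8.80 CPM at 7 dpi and 1.95 CPM at 28 dpi. In the microglia cluster 8 members were lower and 0 higher as well (median -2.05). A panel of 6 border markers summed to 40.2 CPM in sham, 449 CPM at 7 dpi and 37.9 CPM at 28 dpi in MDMs. The part of border macrophages in this difference was not tested. Of 12 genes of alternative activation, 7 passed, and 4 were lower and 2 higher (median -2.06). Arg1 stood at 1.41 CPM in sham, 31.0 CPM at 7 dpi and 0.216 CPM at 28 dpi, a log2 ratio of -7.16 (-9.45 to -5.61) for 28 over 7 dpi, and Tgm2, a transglutaminase, stood at 12.7 CPM in sham, 41.3 CPM at 7 dpi and 9.88 CPM at 28 dpi (-2.06, -2.34 to -1.80). Socs2 and Egr2, at 2.00 and 1.42, went the other way.

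Lipid handling was split. Of 26 genes of lipid uptake, transport and storage, 24 passed, and 8 were lower and 3 higher at 28 dpi (median -0.47). Plin2, which coats lipid droplets, stood at 133 CPM in sham, 837 CPM at 7 dpi and 248 CPM at 28 dpi (-1.76, -1.81 to -1.70). Nr1h3, the sterol-sensing nuclear receptor LXR-alpha, stood at 5.64 CPM in sham, 19.9 CPM at 7 dpi and 2.45 CPM at 28 dpi (-3.02, -3.57 to -2.52), and Pltp, a phospholipid transfer protein, stood at 34.6 CPM in sham, 151 CPM at 7 dpi and 40.1 CPM at 28 dpi (-1.91, -2.04 to -1.78). The 3 higher genes were Lpl, lipoprotein lipase, at 1481 CPM in sham, 724 CPM at 7 dpi and 1655 CPM at 28 dpi (1.19, 1.16 to 1.22), and the apolipoprotein genes Apoc1 at 348 CPM in sham, 375 CPM at 7 dpi and 1035 CPM at 28 dpi (1.47, 1.42 to 1.51) and Apoc4 at 40.9 CPM in sham, 137 CPM at 7 dpi and 438 CPM at 28 dpi (1.67, 1.61 to 1.74). Their neighbour Apoc2 went the other way, at 110.0 CPM in sham, 728 CPM at 7 dpi and 304 CPM at 28 dpi (-1.26, -1.31 to -1.21). Apoe, the apolipoprotein that carries cholesterol out of macrophages, stood at 62248 CPM in sham, 95581 CPM at 7 dpi and 106535 CPM at 28 dpi, and Abca1 and Abcg1, the transporters that load it, had log2 ratios of -0.38 and -0.06. Trem2, a lipid-sensing receptor, stood at 3227 CPM in sham, 2946 CPM at 7 dpi and 3238 CPM at 28 dpi, so these 4 genes were under 2-fold apart. Of 18 genes of cholesterol and fatty acid synthesis, 13 passed, and 1 was higher and 0 lower.

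Most genes of the lysosome, where engulfed material is digested, were under 2-fold apart. Of 24 cathepsin and lysosome genes, 23 passed, and 1 was higher and 1 lower at 28 dpi (median -0.04). Ctsd, an aspartic protease, stood at 16867 CPM in sham, 20637 CPM at 7 dpi and 25308 CPM at 28 dpi, Ctsb, a cysteine protease, at 7533 CPM in sham, 10416 CPM at 7 dpi and 8032 CPM at 28 dpi, and Cd68, a lysosomal glycoprotein of macrophages, at 1108 CPM in sham, 1592 CPM at 7 dpi and 1536 CPM at 28 dpi. The higher gene was Cst3, cystatin C, which inhibits cysteine proteases and stood at 11895 CPM in sham, 4267 CPM at 7 dpi and 11339.7 CPM at 28 dpi (1.41, 1.40 to 1.42). The lower gene was Ctsk, cathepsin K, at -4.04. Of 20 efferocytosis receptors and bridging proteins, 19 were in the table and 16 passed, with 3 higher and 4 lower. Axl, a receptor for apoptotic cells, stood at 304 CPM in sham, 173 CPM at 7 dpi and 419.8 CPM at 28 dpi (1.28, 1.22 to 1.34). Pros1, the bridging protein S, stood at 138 CPM in sham, 33.5 CPM at 7 dpi and 81.4 CPM at 28 dpi (1.28, 1.14 to 1.42). Mfge8, another bridging protein, went the other way at 204 CPM in sham, 180.4 CPM at 7 dpi and 76.2 CPM at 28 dpi (-1.24, -1.34 to -1.14), and its sham level rested on few cells, since without the 10 deepest cells of each library the log2 ratio of 28 dpi over sham was 2.45 in place of -1.42. The receptor gene Mertk stood at 8.46 CPM in sham, 6.29 CPM at 7 dpi and 7.28 CPM at 28 dpi.

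Matrix genes were apart in both directions. Of 22 genes, 18 passed, and 4 were higher and 7 lower at 28 dpi (median -0.15). Thbs1, thrombospondin 1, which activates TGF-beta, stood at 7.76 CPM in sham, 70.4 CPM at 7 dpi and 5.19 CPM at 28 dpi (-3.76, -4.12 to -3.42), and Lgals1, the lectin galectin-1, at 143 CPM in sham, 1104 CPM at 7 dpi and 288 CPM at 28 dpi (-1.94, -1.99 to -1.89). Besides Mmp12, the higher genes were Lox (2.98), which crosslinks collagen, and Plau (1.55) and Plaur (1.51), the urokinase activator of plasminogen and its receptor. Fn1, fibronectin, stood at 202 CPM in sham, 249 CPM at 7 dpi and 422 CPM at 28 dpi (0.76, 0.70 to 0.81). Of 20 growth factor genes, 13 of the 19 in the table passed, and 3 were higher and 2 lower. Igf1, a growth factor of reparative macrophages, was under 2-fold apart, at 209 CPM in sham, 514 CPM at 7 dpi and 775 CPM at 28 dpi (0.59, 0.55 to 0.63), while Hbegf (2.79), Csf1 (1.36) and Pdgfb (1.14) were higher and Gdf15 (-2.04) was lower.

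Among signals to other leukocytes, 19 of 22 chemokines and receptors passed, with 4 higher and 4 lower at 28 dpi (median 0.53). Ccl3 stood at 1295 CPM in sham, 249.8 CPM at 7 dpi and 781 CPM at 28 dpi (1.64, 1.60 to 1.69) and Ccl4 at 1209 CPM in sham, 336 CPM at 7 dpi and 838 CPM at 28 dpi (1.32, 1.27 to 1.36), both of them chemokines that attract leukocytes. Of the ligands of Ccr2, Ccl2 and Ccl7 went the other way. Ccl2 stood at 74.0 CPM in sham, 48.6 CPM at 7 dpi and 23.1 CPM at 28 dpi (-1.07, -1.26 to -0.89), and Ccl7 was at -3.82. Another Ccr2 ligand, Ccl12, did not, at 239, 49.4 and 100 CPM in sham, 7 dpi and 28 dpi with each cell weighted alike. Of 19 inflammatory cytokine genes, 16 passed, and 2 were higher and 0 lower, namely Cd14, the co-receptor for lipopolysaccharide, at 487 CPM in sham, 79.9 CPM at 7 dpi and 245 CPM at 28 dpi (1.62, 1.53 to 1.70) and Il1rn at 1.42. Of 14 antigen presentation genes, 11 passed, and 2 were higher and 0 lower. These were Cd74, the invariant chain, at 111 CPM in sham, 82.8 CPM at 7 dpi and 172 CPM at 28 dpi (1.05, 0.96 to 1.14) and Cd86, a costimulatory ligand, at 137 CPM in sham, 29.0 CPM at 7 dpi and 68.6 CPM at 28 dpi (1.24, 1.09 to 1.39). Of 20 adhesion genes, 18 passed, and 5 were higher and 0 lower, among them the tetraspanin genes Cd9 at 3490.3 CPM in sham, 1352 CPM at 7 dpi and 3169 CPM at 28 dpi (1.23, 1.21 to 1.25) and Cd81 at 2287 CPM in sham, 578 CPM at 7 dpi and 1395 CPM at 28 dpi (1.27, 1.24 to 1.30). Of 16 complement genes, 12 passed, and 3 were higher and 1 lower, while the C1q genes C1qa, C1qb and C1qc had log2 ratios of 0.60, 0.03 and 0.31.

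Among homeostatic microglia genes, all 14 passed, and 4 were higher and 0 lower at 28 dpi (median 0.56). These were Siglech (1.83, 1.67 to 2.00), Sall1, the transcription factor of microglial identity, at 98.0 CPM in sham, 11.4 CPM at 7 dpi and 27.9 CPM at 28 dpi (1.30, 1.06 to 1.54), Gpr34 at 612 CPM in sham, 107 CPM at 7 dpi and 242 CPM at 28 dpi (1.18, 1.10 to 1.26) and Selplg at 389 CPM in sham, 129 CPM at 7 dpi and 258 CPM at 28 dpi (1.01, 0.93 to 1.08). P2ry12 had a log2 ratio of 0.67 (0.53 to 0.81), and Tmem119 had one of -0.25 (-0.36 to -0.15). The share of T cells with a Siglech UMI, given below with the other shares, was higher at 28 dpi as well, and the part of RNA from outside the cell in these values was not tested. Of 20 interferon-stimulated genes, all 19 in the table passed and 0 were 2-fold apart. Of 25 glycolysis and hypoxia genes, 23 passed, and 2 were higher and 2 lower. Of 17 iron and heme genes, 14 passed, and 0 were higher and 2 lower, with the ferritin light chain gene Ftl1 at 6885 CPM in sham, 18389 CPM at 7 dpi and 11128 CPM at 28 dpi (-0.72, -0.73 to -0.72). Of 23 phagocyte oxidase and antioxidant genes, 21 passed, and 0 were higher and 2 lower, one of them Txn1, thioredoxin, at 328 CPM in sham, 539 CPM at 7 dpi and 197 CPM at 28 dpi (-1.45, -1.52 to -1.39). Of 26 macrophage transcription factor genes, 23 passed, and 2 were higher and 1 lower, and of 21 cell cycle genes, 14 passed, and 0 were higher and 2 lower. Of 87 cytosolic ribosomal protein genes, 83 passed, and 1 was higher and 0 lower, and of 87 genes of the respiratory chain and ATP synthase, 81 passed, and 1 was higher and 2 lower.

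Markers of other cells that a dissociated cord holds were mostly too low to pass. Of 10 astrocyte genes, 9 passed, and 3 were higher and 0 lower (median 0.61), one of them Cst3, which macrophages express. Of 10 myelin and oligodendrocyte genes, 5 passed, with 0 apart. Of 10 neutrophil genes, 5 passed, and only Mmp8, the neutrophil collagenase, was apart, at 4.23 CPM in sham, 40.9 CPM at 7 dpi and 4.18 CPM at 28 dpi (-3.29, -3.70 to -2.90). Of 12 T and B lymphocyte genes, 1 passed, with 0 apart. Of 10 dendritic cell genes, 2 passed, with 1 higher, and of 8 endothelial genes, 4 passed, with Flt1 higher. Of 5 erythroid genes, 2 passed, and both were lower, with a summed level of 36.7 CPM in sham, 19.1 CPM at 7 dpi and 8.73 CPM at 28 dpi over the marker panel.

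**Figure D3:**
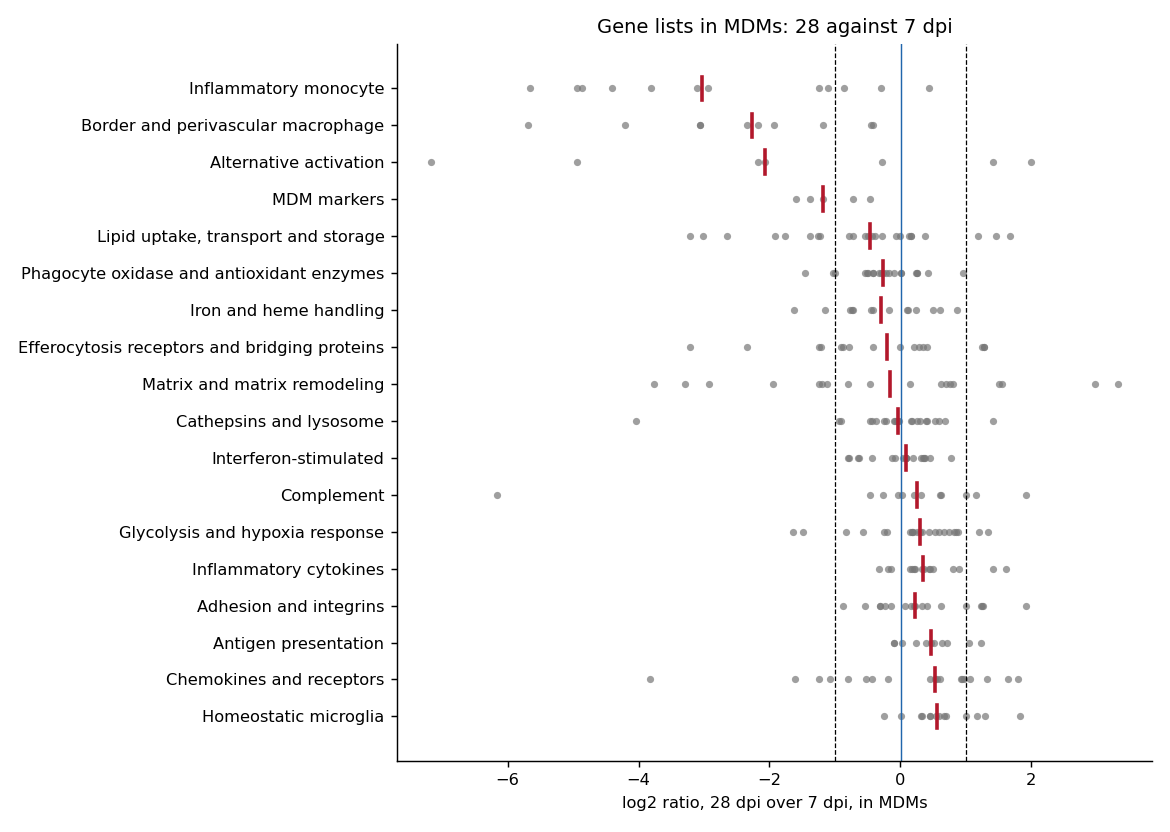
Log2 ratios of 28 over 7 dpi in MDMs for the members of 18 gene lists that passed the 100-UMI minimum, 1 grey point per gene, with the list median as a red bar. Dashed lines mark 2-fold and the blue line the median of all genes. Of these 18 medians, the lowest is -3.02 for inflammatory monocyte genes and the highest 0.56 for homeostatic microglia genes.

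Of the 10 genes that the study used to describe MDM subsets, 7 were at least 2-fold apart between 7 and 28 dpi. Over all genes, 3.29% were higher and 3.60% lower at 28 dpi. The 10 subset genes were chosen in the study from these same libraries, so their directions are not independent evidence. S100a4, Gpnmb and Ms4a7 were lower at 28 dpi, and Mmp12, Siglech, Cst3 and Lpl were higher. Fcrls, a microglial Fc-receptor-like protein, stood at 1046 CPM in sham, 783 CPM at 7 dpi and 978 CPM at 28 dpi, and Ifit3, an interferon-induced gene, at 50.1 CPM in sham, 18.0 CPM at 7 dpi and 19.2 CPM at 28 dpi. With Ctsd, these were the 3 genes under 2-fold apart.

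Whether such differences came from many cells or few was examined after thinning each MDM to 1000 UMIs, which left 175 cells in sham, 3008 at 7 dpi and 3258 at 28 dpi and left out 10, 15 and 55 shallower cells. A UMI of Gpnmb was found in 22 sham cells (12.6%, 8.05 to 18.4%), 2305 cells at 7 dpi (76.6%, 75.1 to 78.1%) and 1855 cells at 28 dpi (56.9%, 55.2 to 58.6%). T cells should lack the gene, and 0 of 61, 19.0% and 15.4% of the T cell cluster held such a UMI. In the B cell cluster the shares were 0 of 23, 36.3% and 21.9%, so the MDM shares at 7 and 28 dpi were above both. A count of 0 in 61 T cells allows a share of up to 4.92% by the limit of 3 counts, and the exact 95% interval reaches 5.87%. The median depth of the T cell cluster was 3669, 1510 and 1233 UMIs before thinning, against 5769, 5777 and 3875 UMIs in MDMs, where the unthinned Gpnmb shares were 17.8%, 88.6% and 74.3%. F13a1 was found in 0.571%, 10.3% and 0.276% of MDMs (unthinned 4.32%, 32.1% and 0.815%), and in 0 of 61, 1.65% and 0 of 241 of T cells. The very low total at 28 dpi thus came with a UMI in 9 of 3258 cells. Mmp12 was found in 0.571%, 1.83% and 12.3% of MDMs (unthinned 3.78%, 5.69% and 23.8%), and in 0 of 61, 0 of 121 and 2.90% of T cells. Mmp12 was therefore detected in a minority of MDMs even at 28 dpi.

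Cst7 was found in 30.9%, 17.2% and 54.1% of MDMs (unthinned 63.2%, 37.1% and 82.8%). As T cells can express Cst7, the B cell cluster was used for comparison, with 0 of 23, 6.85% and 21.2% of cells and a median depth of 2850, 2209 and 932 UMIs. Itgax was found in 10.9%, 5.15% and 18.6% of MDMs (unthinned 38.4%, 21.7% and 47.6%), and in 4.92%, 2.48% and 7.47% of T cells. Both genes were thus found in more MDMs at 28 dpi than at 7 dpi. P2ry12 was found in 32.0% of sham MDMs, 3.82% at 7 dpi and 6.14% at 28 dpi (unthinned 73.5%, 18.6% and 19.8%). In T cells the P2ry12 shares were 1.64%, 1.65% and 6.64%, and in B cells 4.35%, 5.48% and 3.12%. The 28 dpi share in MDMs was thus not above that in T cells, and the 7 dpi share was not above that in B cells. Siglech was found in 31.4%, 2.39% and 7.09% of MDMs (unthinned 68.1%, 8.57% and 21.3%), beside 0 of 61, 0.826% and 5.39% of T cells and 0 of 23, 4.79% and 6.25% of B cells. The 95% interval of the MDM share overlapped those of both clusters at 7 and 28 dpi, and the part of free RNA in these shares was not tested.

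**Figure D4:**
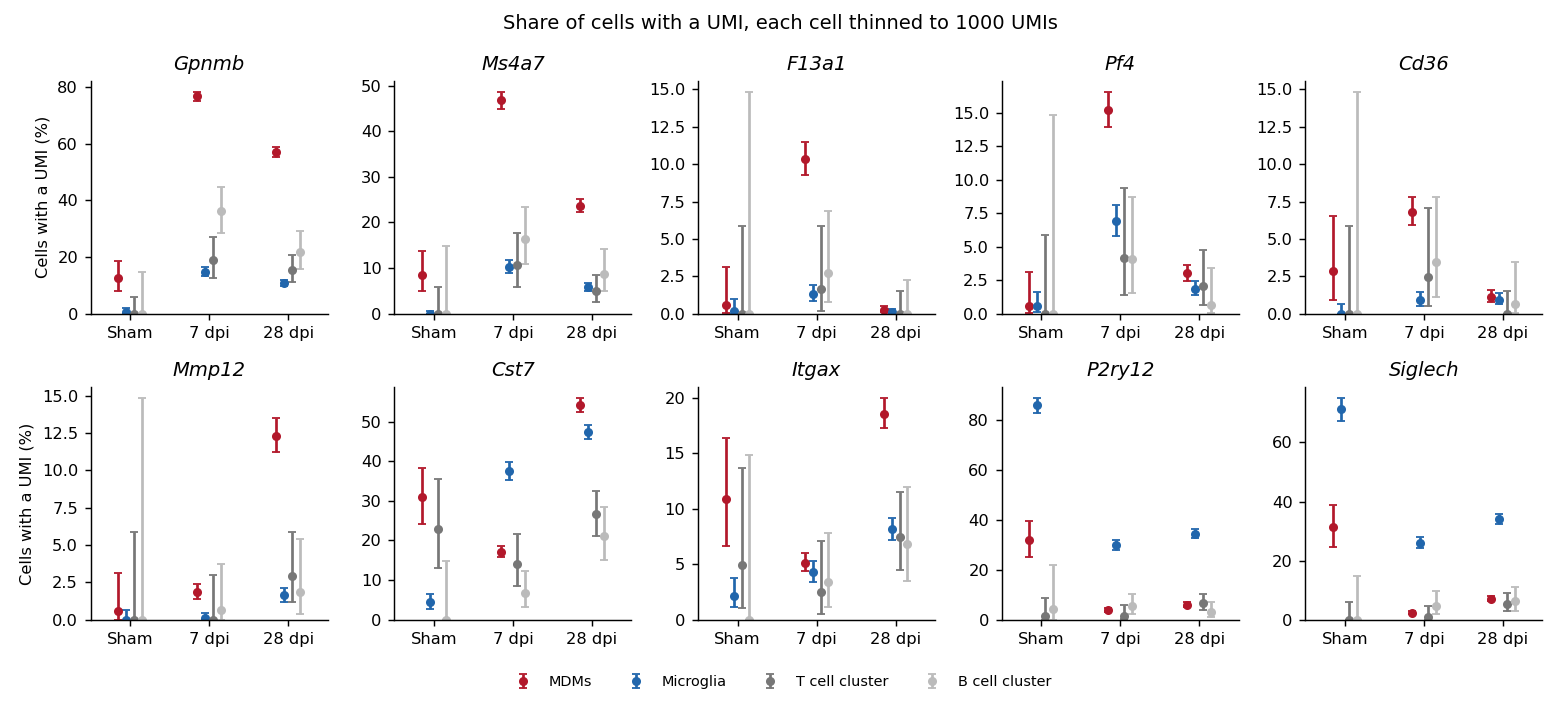
Percent of cells with a UMI of 10 genes after thinning each cell to 1000 UMIs, for MDMs (red), microglia (blue), the T cell cluster (dark grey) and the B cell cluster (light grey) of each vehicle library, with exact 95% binomial intervals. In MDMs, Gpnmb, Ms4a7, F13a1, Pf4 and Cd36 had their highest share at 7 dpi, and Mmp12, Cst7 and Itgax at 28 dpi.

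Within the 7 dpi library, the 2305 thinned MDMs with a Gpnmb UMI and the 703 without were compared for a panel of genes, of which those named here were chosen after their values were seen. The values are CPM after thinning, first in cells with the UMI and then in cells without it, and describe cells of 1 library. Cells with Gpnmb held more F13a1 (166 against 22.8), more Cd36 (111 against 12.8), more Ahnak (208 against 19.9) and more Lyz2 (3351 against 1039.8). Cells without it held more Cst7 (125 against 759.6), more Lpl (486 against 1475), more Ccl6 (99.3 against 408), more Cst3 (3375 against 8755) and more of the fractalkine receptor gene Cx3cr1 (599 against 1842). They also held more of the microglia genes Siglech (13.9 against 62.6), P2ry12 (31.7 against 72.5) and Fcrls (631 against 1626). F13a1, Cd36 and Ahnak, which were lower at 28 dpi, were thus higher in the Gpnmb-positive cells of the earlier library, and Cst7, Lpl and Ccl6, which were higher at 28 dpi, were higher in its Gpnmb-negative cells. Itgax, also higher at 28 dpi, went the other way and was higher in the Gpnmb-positive cells (65.9 against 32.7), and Mmp12 was close in both (31.2 against 27.0). In the 28 dpi library, the 1855 cells with Gpnmb and the 1403 without were less apart for Cst7 (960.1 against 1089.8) and Lyz2 (1754 against 949), while Ccl6 was again higher in cells without it (322 against 857). Among thinned cells with a Gpnmb UMI alone, a comparison added after seeing the data, 3913 genes passed the minimum, and 116 were higher and 152 lower at 28 than at 7 dpi.

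Smaller groups of cells were marked by single genes. At 7 dpi, 124 thinned MDMs held an S100a4 UMI, and these held more S100a6 (1016 against 112), Lgals3 (4766 against 2013) and Arg1 (96.8 against 22.2) than the 2884 without, and less Apoe (51911 against 106189). The 311 cells with F13a1 held more Arg1 (77.2 against 19.3) and less Cst7 (32.2 against 301) than the 2697 without. Both groups thus shared higher Arg1 and lower Cst7, the latter at 105 against 281 for S100a4. At 28 dpi, the 401 cells with Mmp12 held more Spp1 (23706 against 13336), Lgals3 (2626 against 1179), Plin2 (377 against 208) and Lpl (2683 against 1574) than the 2857 without, and less Cst7 (850.4 against 1039).

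Against sham, the results depended on the scaling and on which cells were kept. At 7 dpi, 340 of 8303 genes (4.09%) were at least 2-fold higher and 913 (11.0%) were lower than in sham, and at 28 dpi 118 of 7714 genes (1.53%) were higher and 434 (5.63%) were lower. The medians of all genes were -0.25 in both comparisons. With TMM factors in place of total UMIs they were 0.10 and 0.07, and the split turned to 732 higher and 385 lower at 7 dpi and to 290 higher and 148 lower at 28 dpi. Among cells without a UMI of the 4 microglia markers, 607 were higher and 474 lower at 7 dpi, and 443 were higher and 280 lower at 28 dpi. No direction over all genes can therefore be given against sham, and both comparisons share the same 185 sham cells.

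Named genes differed in how they held up. Higher at 7 dpi than in sham were Pf4 at 4.07 (3.47 to 4.75), F13a1 at 3.79 (3.12 to 4.54), the secreted protein gene Wfdc17 at 3.43 (3.25 to 3.61) and Plin2 at 2.66 (2.45 to 2.87). In cells without the microglia markers these log2 ratios were 3.47 (2.35 to 4.92), 3.57 (2.22 to 5.45), 2.32 (2.04 to 2.60) and 2.07 (1.67 to 2.49), so each stayed above 2-fold. The other 6 of the 10 highest were S100a6, Lgals1, Apoc2, Stab1, Pla2g7 and the metalloprotease gene Adam8. Their log2 ratios were 3.04, 2.95, 2.73, 2.46, 2.40 and 2.29 over all MDMs, and 2.68, 1.82, 2.29, 2.49, 1.33 and 2.05 in marker-free cells. The MDM markers behaved otherwise. Gpnmb was 1.57 (1.52 to 1.62) for 7 dpi over sham in all MDMs and 0.16 (0.10 to 0.22) in the marker-free cells, and Fabp5 was 1.80 (1.74 to 1.86) and 0.39 (0.31 to 0.47), whereas Spp1 was 2.07 (2.03 to 2.10) and 1.91 (1.83 to 1.99). When each cell was weighted alike, Gpnmb stood at 969 CPM in sham, 6669.7 CPM at 7 dpi and 2256 CPM at 28 dpi.

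Lower at 7 dpi than in sham were the microglia genes Siglech at -3.89 (-4.08 to -3.70), P2ry12 at -3.30 (-3.46 to -3.15) and Sall1 at -3.11 (-3.42 to -2.79). In the microglia cluster their log2 ratios were -2.13, -2.78 and -1.58. The part of the mixture described above in the MDM values was not tested. Beside these microglia genes stood genes that respond within minutes to stimulation or to tissue dissociation. Socs3, an inhibitor of cytokine signalling, stood at 187 CPM in sham, 15.8 CPM at 7 dpi and 17.7 CPM at 28 dpi (-3.56, -3.80 to -3.32 at 7 dpi, -3.40, -3.65 to -3.14 at 28 dpi). Btg2, an antiproliferative gene, stood at 1138 CPM in sham, 109.5 CPM at 7 dpi and 224 CPM at 28 dpi (-3.38, -3.47 to -3.28 and -2.35, -2.43 to -2.26). Zfp36, which destabilises inflammatory transcripts, stood at 696 CPM in sham, 111 CPM at 7 dpi and 199 CPM at 28 dpi (-2.65, -2.76 to -2.54 and -1.80, -1.91 to -1.70). Of 20 genes of this immediate early list, 17 passed, and 14 were lower and 0 higher at 7 dpi (median -1.85), and 15 were lower and 0 higher at 28 dpi (median -1.97). Over all genes, 11.0% were lower and 4.09% higher at 7 dpi, and 5.63% lower and 1.53% higher at 28 dpi. The microglia of the same libraries showed 14 and 15 lower genes of this list, and the part of dissociation was not tested. In marker-free cells the log2 ratio of 28 dpi over sham was -2.11 (-3.04 to -1.05) for Socs3, -2.21 (-2.52 to -1.88) for Fos, -2.23 (-2.71 to -1.72) for Dusp1, -0.33 (-0.72 to 0.09) for Btg2 and -0.22 (-1.17 to 0.92) for Klf2. For 7 dpi over sham, the values of Socs3, Btg2 and Zfp36 are given over all MDMs only. The remaining lowest genes at 7 dpi were Lag3, Otud1, H2-Q4 and Cd14, at -3.17, -2.84, -2.68 and -2.61, and in marker-free cells at -1.80, -0.11 (-2.00 to 2.96), on 2 sham UMIs,, -2.38 and -1.71. H2-Q4 belongs to a family of near-identical genes, so its counts are uncertain.

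At 28 dpi the genes highest against sham were Apoc4 at 3.42 (3.05 to 3.82), Mmp12 at 3.02 (2.64 to 3.42), Igf1 at 1.89 (1.72 to 2.06) and Spp1 at 1.61 (1.57 to 1.64). In marker-free cells they were 2.47 (1.82 to 3.20), 5.04 (3.49 to 7.32), 1.42 (1.06 to 1.79) and 1.55 (1.47 to 1.62), where Mmp12 rested on 3 sham UMIs. The others were Gm1673, Pianp, S100a9, Crip1, Apoc1 and the glutathione peroxidase gene Gpx3, at 1.93, 1.93, 1.92, 1.84, 1.57 and 1.51 over all MDMs and 0.78, 1.63, 4.69 (2.21 to 10.00), 0.38, 1.05 and 0.22 in marker-free cells, where S100a9 rested on 1 sham UMI. S100a9 is a neutrophil gene, and 4 neutrophil markers, of which 3 were in the table, summed to 84.6 CPM in sham, 192 CPM at 7 dpi and 152 CPM at 28 dpi in MDMs. The part of neutrophil RNA was not tested. Among the lowest, besides Socs3, P2ry12 and Btg2, were Fos, Klf2, Dusp1, Egr1, Jun and Ier5, between -2.42 and -2.12. In marker-free cells Egr1 was at 0.33 (-0.40 to 1.18), Jun at -0.83 and Ier5 at -0.76, all under 2-fold. Of the 19 inflammatory cytokine genes, 16 passed in both comparisons, and 12 were lower at 7 dpi and 8 at 28 dpi, with 0 higher in either, beside 11.0% and 5.63% of all genes lower. In microglia 8 were lower and 1 higher at each time. The list's median log2 ratio was -1.65 at 7 dpi and -1.08 at 28 dpi over all MDMs, and -1.17 and -0.49 in marker-free cells.

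The microglia cluster of the same libraries was placed beside MDMs for 28 against 7 dpi. Over the 7714 genes that passed the minimum in both clusters, 249 were at least 2-fold higher and 118 lower in MDMs (4.76%), and 48 were higher and 25 lower in microglia (0.946%). These genes held 33303579 UMIs in MDMs and 14513231 UMIs in microglia, and the difference between the clusters was not tested. Some of the MDM genes named above had similar ratios in microglia. Mmp12 was 3.31 (2.49 to 4.25) there, Cd93 was -4.29 (-5.77 to -3.12), Cd5l was -3.73 (-4.57 to -2.99) and Stab1 was -2.06 (-2.21 to -1.90). Others did not, such as Lag3 at 0.21 (0.10 to 0.32), Cst7 at 0.42 (0.37 to 0.47), Cd24a at -0.60 (-1.43 to 0.21) and S100a6 at -0.38 (-0.76 to 0.00). The Mmp12 ratio in microglia rested on few cells. After thinning, a Mmp12 UMI was found in 0.151% of microglia at 7 dpi and 1.63% at 28 dpi. In T cells the shares were 0 of 121 and 2.90%, and in B cells 0.685% and 1.88%. At neither time was the microglia share above both, and the part of free RNA was not tested. Cd36 was on the other side of 0 in microglia, at 0.63 (0.12 to 1.16), with 50 UMIs at 7 dpi and 91 UMIs at 28 dpi. After thinning, a Cd36 UMI was found in 0.907% of microglia at 7 dpi and 0.945% at 28 dpi. The shares were 2.48% and 0 of 241 in T cells, and 3.42% and 0.625% in B cells.

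**Figure D5:**
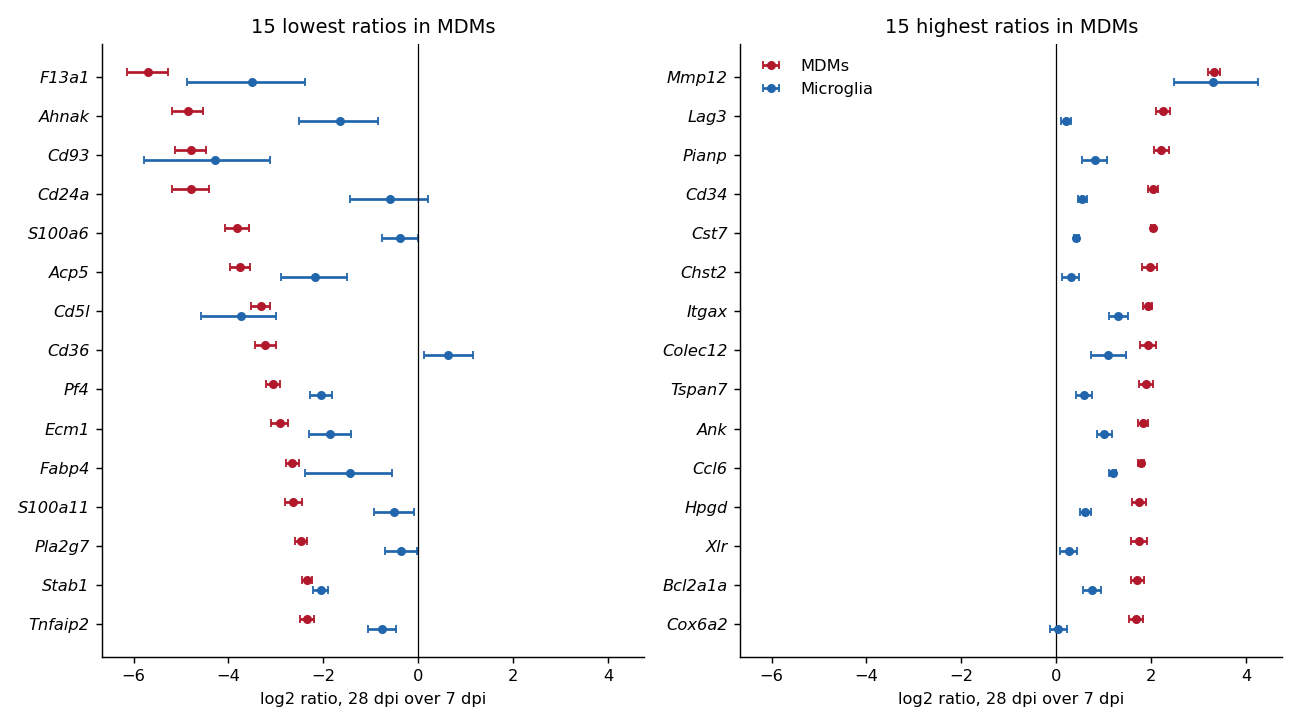
Log2 ratios of 28 over 7 dpi for the 15 genes with the lowest (left) and the 15 with the highest (right) ratios in MDMs, with the same genes in the microglia cluster of the same libraries (MDMs red, microglia blue). Bars are 95% intervals for counting error. Mmp12, Cd93 and Cd5l had intervals that overlapped between the clusters, and Cd36 lay on opposite sides of 0.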

How the data were processed

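Single cells of contused or sham-operated mouse cord were captured by droplet with a 10x Genomics 3′ v3 kit. The deposited values are UMI counts per gene and cell, which the authors made with Cell Ranger on the mouse genome GRCm38 and filtered and clustered in Seurat. The cluster of each cell was read from the deposited cell annotation, with cluster 1 taken as MDMs. Against the library files, the deposited count table left out 121 sham barcodes and 2 barcodes at 28 dpi with fewer than 200 genes. Its counts differed from those files for 800 genes in sham, 507 at 7 dpi and 506 at 28 dpi, all of them 0 in the table. Of these genes, 795, 507 and 506 were found in fewer than 3 cells of the library. The stated upper limit of 3000 genes was not seen in the table, since 32, 127 and 14 MDMs of sham, 7 dpi and 28 dpi exceeded it.

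UMIs of the MDMs were summed per library (1418201 in sham, 19876321 at 7 dpi and 13864964 at 28 dpi) and scaled by their total. With 1 pooled library per condition no test was run. Levels carry exact Poisson intervals, ratios exact conditional binomial intervals and shares exact Clopper-Pearson intervals, all at 95% and for counting error alone. A floor of 3 counts stands for a count of 0. A gene entered a comparison with 100 or more UMIs summed over both libraries and counted as apart at 2-fold. Named were members of 31 gene lists and of marker panels, and the 15 highest and 15 lowest ratios for 28 over 7 dpi (10 each against sham) among genes with a mean of at least 50 CPM. Near-identical gene copies are uncertain in such counts. The members and lists were chosen with earlier results of these data known. Scripts were tested on simulated data. Scrublet, through scanpy 1.11.5 at 0.8% per 1000 barcodes, set 0 sham MDMs, 229 MDMs at 7 dpi (7.58%) and 242 MDMs at 28 dpi (7.30%) as doublets, which were kept except in 1 alternative. Alternatives used factors from edgeR 4.0.16 and DESeq2 1.42.0 in R 4.3.3 and other scalings, cell sets and minimums. Intervals came from scipy 1.17.1 under Python 3.11.15. Libraries of mice fed the PLX5622 diet and the bulk samples were not used here. A few genes that met the rule for naming are not reported here.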

Additional observations from a re-analysis of the deposited data

Results flagged for a closer look

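The results below stood out because the MDMs and the microglia of the same libraries were at least 2-fold apart in opposite directions. Each rests on 1 library per condition, and the difference between the clusters was not tested. For 28 over 7 dpi the log2 ratio of Il7r, the interleukin-7 receptor, was -3.84 in MDMs and 1.03 in microglia, and for 7 dpi over sham it was 2.43 in MDMs and -3.61 in microglia. In MDMs Il7r stood at 10.6 CPM in sham, 56.9 CPM at 7 dpi and 3.97 CPM at 28 dpi, and in microglia at 57.7, 4.74 and 9.71 CPM.

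For 7 dpi over sham, 6 further genes were lower in MDMs and higher in microglia. The log2 ratios in MDMs and microglia were -1.09 and 3.71 for Cst7, -1.03 and 3.37 for Lpl, -1.42 and 2.00 for Csf1, -1.85 and 1.59 for Ccl4, -1.61 and 1.35 for Ank and -1.10 and 2.16 for Cox6a2. The sham MDMs included many cells with microglia markers. In MDMs without a UMI of those markers the log2 ratios were -1.46 for Cst7, -1.01 for Lpl, -0.67 for Csf1, -0.56 for Ccl4, -1.53 for Ank and -0.88 for Cox6a2. For 28 dpi over sham, Ccl5 was -1.5 in MDMs and 1.83 in microglia, and 1.27 in MDMs without the microglia markers, where sham held 3 UMIs.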

How the results depend on the processing

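No paired analysis was possible because the labels give no replicate numbers and each condition is 1 library. For 28 over 7 dpi, of the 97 named genes at least 2-fold apart, 0 reversed and 9 fell under 2-fold in any of 10 other settings (Selplg, Btg2, Otud1, Ccl2, Ccr2, Sall1, Lyz2, Cd74 and Mfge8). The counts of genes higher and lower were 124 and 139 after thinning to 1000 UMIs, 532 and 535 at a minimum of 30 UMIs, 169 and 199 at 300 UMIs, 1197 and 1038 with no minimum, and 116 and 152 in thinned cells with a Gpnmb UMI. That set and the one without the 10 deepest cells were chosen after seeing the data. Thinning and higher minimums test fewer genes.

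Against sham, of 111 named genes apart at 7 dpi 4 reversed and 49 fell under 2-fold in any of 9 settings, and of 60 at 28 dpi 12 reversed and 33 fell under it. For 7 dpi over sham the counts were 732 and 385 with TMM factors, 723 and 389 with DESeq2 factors, 607 and 474 without cells holding a microglia marker UMI, 544 and 1447 at 30 UMIs, 220 and 462 at 300 UMIs and 544 and 3369 with no minimum, and 399 were lower after thinning. For 28 dpi over sham they were 290 and 148, 283 and 151, 443 and 280, 249 and 839, 59 and 172 and 325 and 2413 in the same order, 198 and 879 with each cell weighted alike, and 187 were higher after thinning. Higher genes made up 27.1% of those apart at 7 dpi and 65.5% with TMM factors, and 21.4% and 66.2% at 28 dpi. The cause was not tested.

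Ratios that reversed for 7 dpi over sham were Ccr2 (-0.10) after thinning, and Ifit3 (1.11), Ahnak (-0.27) and Tnfaip2 (-0.14) without cells holding a marker. For 28 dpi over sham, Mfge8 was 0.43 after thinning and 2.45 without the 10 deepest cells. Without marker-holding cells Lgals3 was -0.28, Ifit3 1.96, Gpr34 0.77, Csf1r 0.21, Sparc 0.92, Otud1 1.36 and Wfdc17 -0.13. In the same cells Lgals1 was -0.20, Egr1 0.33, Ccl9 0.52, Ccl5 1.27 and the median of the homeostatic microglia list 0.39. That median covers 9 members, since the 4 markers used to leave out cells are on the list, so the choice of cells bears on it. Where a setting left 0 UMIs of a gene in a library (Ctsk, Ly6c2 and Ccl12 in sham among others), its ratio is not given and not counted. At this depth 3 counts are 2.12 CPM in sham, 0.151 CPM at 7 dpi and 0.216 CPM at 28 dpi.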
